A study of Mus musculus with 4 samples.

Results

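The insulin-like growth factor (IGF) family was followed in colonies of basal epithelial cells of the mouse mammary gland that were cultured with Wnt3A, a secreted activator of canonical Wnt signalling, or with its vehicle. Its members here were 10 genes: the ligands Igf1 and Igf2, the receptors Igf1r and Igf2r, and 6 binding protein genes, Igfbp2 to Igfbp7. Every array probe set whose only annotated gene symbol was one of these was taken, which gave 28 of 45037 probe sets, and 10 of 18193 genes. One further probe set, annotated to both Igf2r and Airn, was left out.

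Both groups were colonies of cells sorted as lineage-negative, CD24-positive and CD29-high from the mammary glands of virgin CD1 females aged 8 to 12 weeks. The Wnt3A group had 2 arrays, Wnt3A 1 and Wnt3A 2, from colonies given 200 ng/ml Wnt3A throughout culture. The control group had 2 arrays, control 1 and control 2, from colonies given the vehicle, 1% CHAPS in PBS. All colonies grew in growth factor reduced Matrigel, a basement membrane gel, in medium with 50 ng/ml EGF and the supplement ITS, which carries insulin, and RNA was taken at passage 2 after 6 to 7 days. Nothing in the labels tells whether the 2 arrays of a group stand for different animals or cultures. The p-values therefore measure only how far these samples spread, and that spread may be technical.

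IGF1 and IGF2 act through IGF1R, a receptor tyrosine kinase that also accepts insulin weakly. IGF2R, the cation-independent mannose 6-phosphate receptor, has no kinase and carries IGF2 to lysosomes. IGF binding proteins hold the ligands outside the cell, where they can withhold them from the receptor or keep them near it, and IGFBP5 is known in the mammary gland for its abundance during involution.

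Each deposited value is a log2 difference from that probe set's median over the 4 arrays, so it carries no absolute level, and levels of different genes cannot be compared. A coarse level band was read from the precision of the stored numbers: 13 member probe sets were placed at log2 8 to 16, 14 at 4 to 8 and 1 below 4. Away from the band edges, errors of this reading place probe sets too high. A probe set with arrays on both sides of an edge can be placed too low. Over all probe sets 33.5% were placed at 8 to 16, 47.3% at 4 to 8 and 19.2% below 4. By the same reading 9 of 10 basal mammary marker genes, Krt5 and Krt14 among them, had a probe set at 8 to 16. This held for 5 of 9 luminal mammary, 1 of 9 fibroblast, 0 of 7 endothelial, 3 of 7 blood cell and 1 of 4 adipocyte marker genes. A marker gene counted if any of its probe sets was there, so the shares over probe sets are only a rough guide for genes. The number of arrays limits the precision: the median standard error (SE) of a difference was 0.16 log2 units over all probe sets. Fewer cells of a type and less RNA per cell cannot be told apart in these bulk samples.

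The comparison asked which members differ between Wnt3A and control colonies. Igfbp5 and Igfbp4 had the largest differences, both lower with Wnt3A, with differences of -1.37 ± 0.62 and -0.64 ± 0.23 log2 units (SE, 2 arrays a group, mean of each gene's probe sets). Igfbp2 and Igfbp7 were 0.46 ± 0.16 and 0.40 ± 0.22 log2 units higher. The receptor genes Igf1r and Igf2r were lower, with differences of -0.19 ± 0.14 and -0.26 ± 0.12, and Igf1, Igf2, Igfbp3 and Igfbp6 had Wnt3A and control arrays that overlapped. No member passed the test: limma called 0 of 28 member probe sets and 0 of 10 member genes at an adjusted p under 0.05, where the background was 0.0% of all probe sets and 0.0% of all genes. The smallest adjusted p among members was 0.72 for probe sets and 0.65 for genes, so all values are given as measured differences.

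At an unadjusted p under 0.05 limma counted 4 of 28 member probe sets, 3 of Igfbp4 and the one of Igfbp2, against 6.22% of all probe sets, and 2 of 10 member genes against 7.37% of all genes. An exact permutation test of 2 against 2 arrays cannot give a two-sided p below 0.33. Both Wnt3A arrays lay above both controls for 3 member probe sets and below both for 7, 35.7% in all. Over all probe sets these shares were 17.4% above and 16.3% below, so separation of the groups was about as frequent among member probe sets as elsewhere. Of the genes, 2 were separated higher and 4 lower, against 17.0% and 17.5% of all genes. Together these made 60.0% of the 10 member genes, against 34.6% of all genes, a difference in share that was not tested. A difference of at least 1 log2 unit was found for 3 member probe sets, 2 of Igfbp4 and 1 of Igfbp5, against 1.59% of all probe sets. At gene level this held for Igfbp5 alone among the members, against 1.7% of all genes. The median absolute difference was 0.32 log2 units over member probe sets and 0.13 over all probe sets, a comparison not matched for level band.

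**Figure D1:**
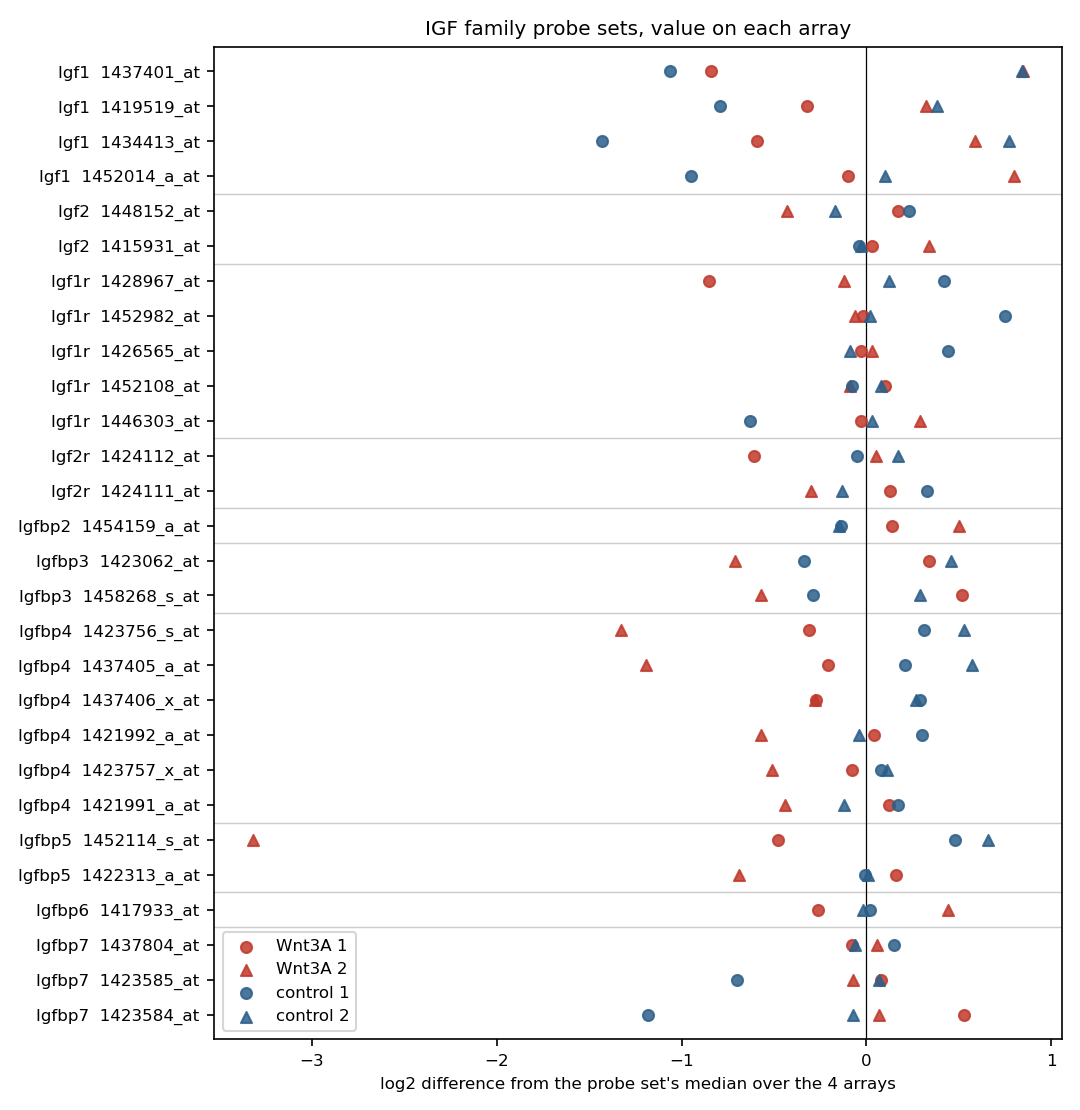
Value of each of the 28 member probe sets on each array, in log2 units from the probe set's median over the 4 arrays; red marks are Wnt3A arrays, blue marks control arrays, circles the arrays numbered 1 and triangles those numbered 2. Wnt3A 2 stands far left for Igfbp5 1452114_s_at at -3.32, and for Igf1 the circles lie left of the triangles in both colours.

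Igfbp5 is the member with the largest difference, and its 2 probe sets did not give the same picture. Probe set 1452114_s_at was at -0.48 in Wnt3A 1 and -3.32 in Wnt3A 2, against 0.48 in control 1 and 0.66 in control 2. Both Wnt3A arrays lay below both controls, and Wnt3A 2 was 2.84 log2 units below Wnt3A 1, while the controls were 0.18 apart. The difference was -2.47 ± 0.98 log2 units (SE), a 5.54-fold lower signal, with an adjusted p of 0.81 by limma. It was -1.05 without Wnt3A 2 and -3.89 without Wnt3A 1. The other probe set, 1422313_a_at, was at 0.16 and -0.69 in the Wnt3A arrays, against -0.01 and 0.01 in the controls. There Wnt3A 1 lay above both controls, the groups overlapped, and the difference was -0.26 ± 0.31, or 0.16 without Wnt3A 2. The gap between these differences was 2.20 log2 units, the widest within any member gene. Both probe sets were lowest in Wnt3A 2.

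Igfbp4, a binding protein usually described as inhibitory to IGF action, was measured by 6 probe sets, more than any other member, and all 6 differences were negative. They ran between -1.24 and -0.19, and in 4 of the 6 both Wnt3A arrays lay below both controls. Probe set 1423756_s_at was at -0.31 and -1.33 in the Wnt3A arrays, against 0.31 and 0.53 in the controls. Probe set 1437405_a_at was at -0.21 and -1.19, against 0.21 and 0.57. In both of these, as in all 6, Wnt3A 2 was the lowest array, and without it their differences were -0.73 and -0.61.

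The steadiest member measurement was also an Igfbp4 probe set. For 1437406_x_at the Wnt3A arrays were at -0.27 and -0.28 and the controls at 0.29 and 0.27, so that the arrays of a group lay within 0.02 of each other. The difference was -0.55 ± 0.12, 1.47-fold lower, with the lowest unadjusted p of any member probe set (0.0073 by limma, adjusted p = 0.72). This x_at suffix marks a probe set with probes that can bind other transcripts, so its signal may not come from Igfbp4 alone. Beyond the single annotated symbol, probe specificity was not checked for any probe set, those with other suffixes included. The remaining separated probe set, 1423757_x_at, differed by -0.39 ± 0.19, or -0.18 without Wnt3A 2. The other 2, 1421992_a_at and 1421991_a_at, overlapped between groups and differed by -0.40 ± 0.26 and -0.19 ± 0.24. As a mean of all 6, Igfbp4 was at -0.12 and -0.72 with Wnt3A against 0.23 and 0.22 in the controls. The difference was -0.34 without Wnt3A 2, -0.94 without Wnt3A 1 and -0.73 without the x_at probe sets.

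Luminal mammary marker genes had lower values with Wnt3A in 7 of 9, with an order of arrays that differed from gene to gene. Of 9 measured luminal markers, 0 passed the adjusted test, and 5 were separated lower (Krt19, Kit, Foxa1, Pgr and Cited1) and 0 higher. This made 55.6%, against 34.6% of all genes separated in either direction. The median luminal difference was -0.60 log2 units, against 0.00 over all genes. Their median was -0.06 and -0.17 in the Wnt3A arrays, against 0.09 and 0.63 in the controls, with control 2 standing highest. Wnt3A 2, the lowest array for Igfbp4 and Igfbp5, was lowest for 3 of the 9, while Wnt3A 1 was lowest for 4, Foxa1 and Cited1 among them, and control 1 for 2, the luminal keratin genes Krt8 and Krt18. Krt8 and Krt18 differed by 0.23 ± 0.22 and 0.17 ± 0.20 with overlapping groups. The part of luminal cells in the Igfbp4 and Igfbp5 differences was not tested. Basal markers had a median difference of 0.28, with 2 of 10 separated higher and 0 lower, and medians of -0.11 and 0.10 in the Wnt3A arrays against -0.38 and 0.11 in the controls. Endothelial, blood and adipocyte markers had median differences of -0.05, 0.09 and 0.06.

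The upstream sequence of these genes is shown because Igfbp4 and Igfbp5 were both lower and Igfbp2, the neighbour of Igfbp5 on chromosome 1, was higher. Each sequence is the 250 bases before an annotated start, from RefSeq on GRCm38.p6, printed 5′ to 3′ on the gene's strand. Capitals mark matches, on either strand, to CTTTGA (the TCF/LEF core), TATAAA (bound by TBP), GGGCGG (bound by Sp1) and GTAAACA (the FOXO core). The windows were Igfbp5 at chr1:72874866-72875115 on the minus strand, Igfbp4 at chr11:99040994-99041243 on the plus strand, and the first of 2 entries for Igfbp2 at chr1:72824230-72824479 on the plus strand.
Igfbp5: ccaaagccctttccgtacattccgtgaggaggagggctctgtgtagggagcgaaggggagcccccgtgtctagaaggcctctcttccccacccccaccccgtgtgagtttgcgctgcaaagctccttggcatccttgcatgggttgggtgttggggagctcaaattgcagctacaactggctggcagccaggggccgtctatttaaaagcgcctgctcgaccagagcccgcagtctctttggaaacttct
Igfbp4: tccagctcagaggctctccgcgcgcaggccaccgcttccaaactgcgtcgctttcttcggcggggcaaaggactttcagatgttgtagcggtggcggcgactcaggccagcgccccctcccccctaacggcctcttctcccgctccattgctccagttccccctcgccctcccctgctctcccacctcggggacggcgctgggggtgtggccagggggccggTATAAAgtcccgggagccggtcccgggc
Igfbp2: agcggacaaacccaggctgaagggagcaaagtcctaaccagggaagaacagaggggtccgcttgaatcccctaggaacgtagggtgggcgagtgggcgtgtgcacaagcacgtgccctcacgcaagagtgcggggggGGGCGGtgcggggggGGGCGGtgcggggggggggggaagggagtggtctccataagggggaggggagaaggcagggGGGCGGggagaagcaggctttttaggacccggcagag

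Igfbp4 holds a TATAAA starting 28 bases before the start. Igfbp2 holds GGGCGG at 113, 98 and 37 bases before its start, and the Igfbp5 window holds no match to the motifs. No matches printed here overlap each other. Of all 32851 promoter windows, 13.8% hold CTTTGA, 12.4% TATAAA, 32.7% GGGCGG and 3.17% GTAAACA. Among the 14 windows of the 10 members, CTTTGA occurs once each in the Igf1 window, in 1 of 4 Igf2 windows and in the Igf1r window, and GTAAACA in 0. GGGCGG is found too in the windows of Igf1r and Igf2r, which were lower, of Igfbp7, which was higher, and of Igf2. TATAAA also occurs in the Igfbp6 window.

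Igfbp2 had 1 probe set, 1454159_a_at. It was at 0.14 and 0.50 in the Wnt3A arrays, against -0.14 and -0.15 in the controls, so the groups did not overlap. The difference of 0.46 ± 0.17 log2 units in the fit of probe sets is a 1.38-fold higher signal (limma adjusted p = 0.80). It was 0.28 without Wnt3A 2, 0.64 without Wnt3A 1 and 0.47 or 0.45 without a control.

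Igfbp7 encodes a secreted relative that binds IGFs weakly, and control 1 set much of its difference. Probe set 1423584_at was at 0.53 and 0.07 in the Wnt3A arrays, against -1.18 and -0.07 in the controls. The groups were separated narrowly, by Wnt3A 2 over control 2. The difference was 0.93 ± 0.42, and it was 0.37 without control 1 and 1.48 without control 2. Probe set 1423585_at was also low in control 1 alone, at -0.70, against 0.08, -0.07 and 0.07 in Wnt3A 1, Wnt3A 2 and control 2, and differed by 0.32 ± 0.29. The third, 1437804_at, lay between -0.08 and 0.15 on all arrays and differed by -0.06 ± 0.14. The gene mean was 0.12 higher without control 1 and 0.67 higher without control 2.

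Igfbp3, whose protein carries most circulating IGF, gave 2 probe sets that matched each other across arrays. Probe set 1423062_at was at 0.34 and -0.71 in the Wnt3A arrays, against -0.34 and 0.46 in the controls, and 1458268_s_at was at 0.52 and -0.57, against -0.29 and 0.29. In both, Wnt3A 2 was the lowest array, and the Wnt3A arrays lay farther apart than the controls. The gene difference of -0.13 ± 0.44 was smaller than its SE, and it was 0.41 without Wnt3A 2 and -0.67 without Wnt3A 1. Igfbp6, a binding protein that prefers IGF2, was likewise spread by the Wnt3A arrays, at -0.26 and 0.44 against 0.02 and -0.02 in the controls, with a difference of 0.09 ± 0.26.

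**Figure D2:**
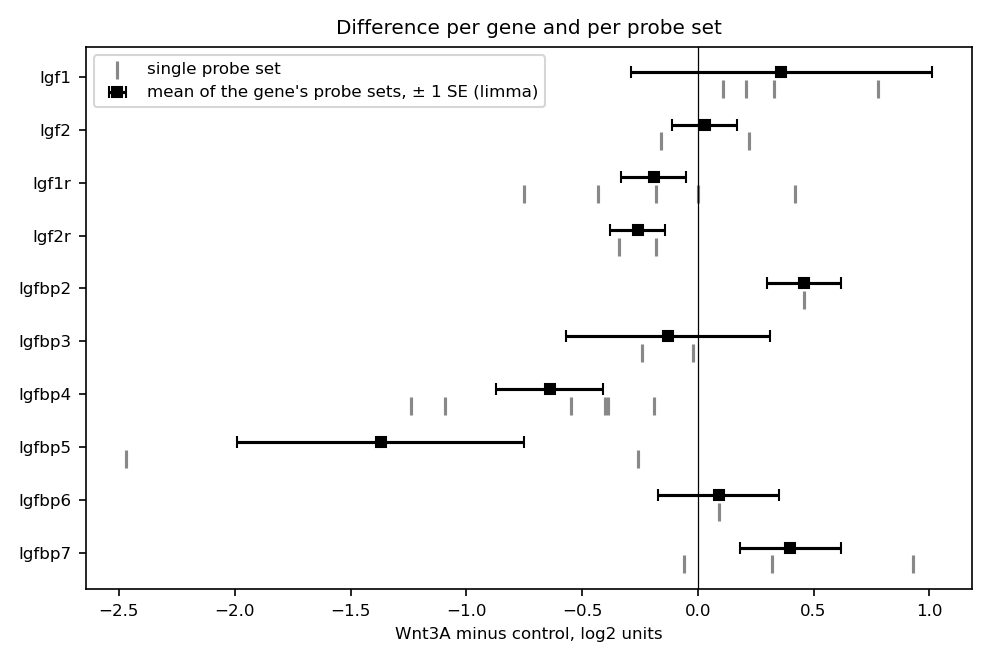
Wnt3A minus control difference in log2 units for each of the 10 genes; squares with bars are the mean of the gene's probe sets ± 1 SE of the limma fit, and grey ticks are single probe sets. Igfbp5 has ticks at -2.47 and -0.26, all 6 Igfbp4 ticks lie left of 0, and those of Igf1r run between -0.75 and 0.42.

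Among the ligands, Igf1 varied more within groups than between them. The 4 Igf1 probe sets had positive differences between 0.11 and 0.78 log2 units, all with overlapping groups. Probe set 1437401_at was at -0.84 and 0.85 in Wnt3A 1 and Wnt3A 2, against -1.06 and 0.84 in control 1 and control 2. In all 4 probe sets control 1 was lowest and Wnt3A 1 the next lowest, so the array number separated the values where the treatment did not. As a mean over probe sets Igf1 was at -0.46 and 0.64 with Wnt3A, against -1.06 and 0.52 in the controls. The difference of 0.36 ± 0.65 was -0.43 without control 1, -0.20 without Wnt3A 2, 1.15 without control 2 and 0.91 without Wnt3A 1. Igf1 in the mammary gland is made largely by stroma. The 9 fibroblast markers had medians of 0.04 and 0.00 in the Wnt3A arrays, against 0.00 and 0.00 in the controls. Of them 1 was separated higher and 1 lower, 22.2% against 34.6% of all genes, and Lum was placed below log2 4. Both arrays numbered 1 lay below both numbered 2, as for Igf1, in 2 of the 9, and above them in 3. Of the collagen genes, Col1a2 was at -0.28 and 0.30 with Wnt3A against -0.82 and 0.58 in the controls, and Col3a1 ran the other way, at 0.37 and -0.29 against 0.20 and -0.28. The part of stromal RNA in the Igf1 values was not tested.

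Igf2, the ligand whose gene is imprinted and transcribed from the paternal copy, had 2 probe sets of opposite sign. Probe set 1448152_at was at 0.17 and -0.43 in the Wnt3A arrays, against 0.23 and -0.17 in the controls, a difference of -0.16 ± 0.27. Probe set 1415931_at, the only member probe set placed below log2 4, was at 0.03 and 0.34 against -0.04 and -0.03, a difference of 0.22 ± 0.16. The groups were separated in the second and overlapped in the first. The gene mean differed by 0.03 ± 0.14.

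Igf1r had 5 probe sets, with differences between -0.75 and 0.42. Probe set 1428967_at was at -0.85 and -0.12 in the Wnt3A arrays, against 0.42 and 0.12 in the controls, and 1452982_at was at -0.02 and -0.06, against 0.75 and 0.02. Both were separated lower, with differences of -0.75 ± 0.29 and -0.43 ± 0.28, and the first differed by -0.39 without Wnt3A 1, the second by -0.06 without control 1. Probe set 1446303_at ran the other way, at -0.03 and 0.29 against -0.63 and 0.03, a difference of 0.42 ± 0.28 that was 0.09 without control 1. The other 2, 1426565_at and 1452108_at, differed by -0.18 ± 0.22 and 0.00 ± 0.14 with overlapping groups. Over all 5 the gene mean was -0.17 and 0.01 with Wnt3A, against 0.18 and 0.03 in the controls, and its difference was -0.10 without Wnt3A 1 and -0.11 without control 1.

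Igf2r had 2 probe sets, both negative and both overlapping between groups. Probe set 1424112_at was at -0.61 and 0.05, against -0.05 and 0.17, and 1424111_at was at 0.13 and -0.30, against 0.33 and -0.13. Their mean separated the groups, at -0.24 and -0.12 with Wnt3A against 0.14 and 0.02 in the controls. The difference was -0.26 ± 0.12 and lay between -0.32 and -0.20 when each array was left out. Its probe sets were less steady: 1424112_at differed by -0.34 ± 0.26, or -0.01 without Wnt3A 1, and 1424111_at by -0.18 ± 0.24, or 0.05 without control 1. Of the 10 members, probe sets disagreed, by opposite signs or a gap over 1 log2 unit, in 5 (Igf2, Igf1r, Igfbp4, Igfbp5 and Igfbp7). They lay on one side in 3 (Igf1, Igf2r and Igfbp3), and 2 genes had 1 probe set.

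**Figure D3:**
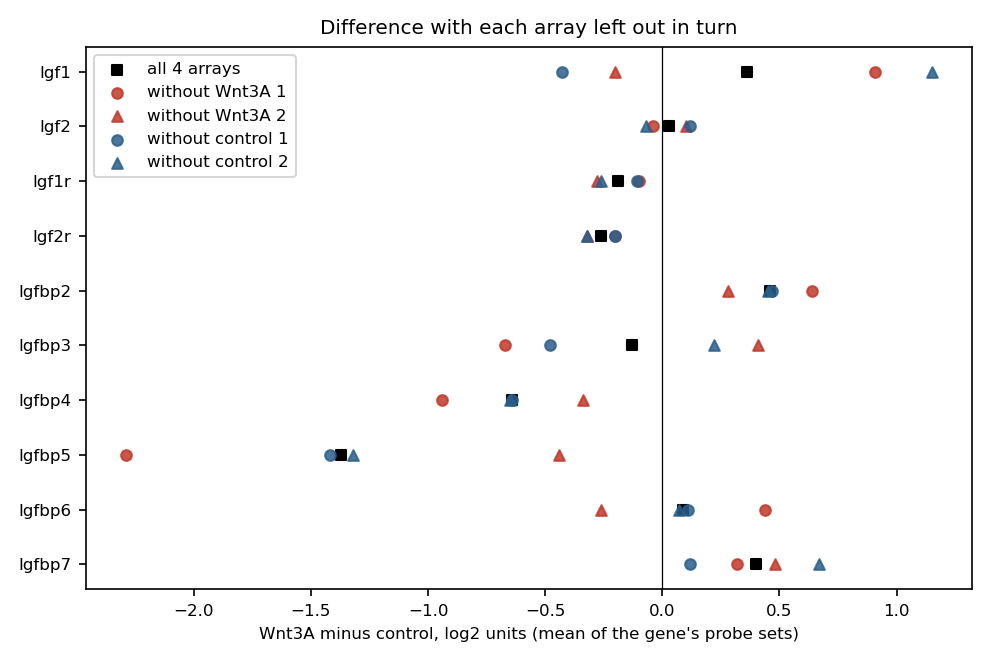
Wnt3A minus control difference in log2 units of each gene with all 4 arrays (black squares) and with each array left out in turn (red for a Wnt3A array, blue for a control, circles for number 1, triangles for number 2). The 5 values of Igfbp5 span -2.29 to -0.44 and stay left of 0, while those of Igf1 span -0.43 to 1.15.

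The 15 probe sets of binding protein genes had a median difference of -0.24 log2 units, with 2 separated higher and 5 lower (46.7%). The 13 probe sets of ligand and receptor genes had a median of 0.00, with 1 separated higher and 2 lower (23.1%). Over all probe sets 33.7% were separated. Igfbp4 gave 6 of the 15. With each gene counted once the medians were -0.02 over the 6 binding protein genes, 3 of them positive, and -0.08 over the 4 ligand and receptor genes, and no test of the difference between these sets was made. By root-mean-square distance over the 4 arrays, the non-member genes closest to Igfbp5 among 18183 were Chil1 (distance 0.09 log2 units), Hmcn1 (0.15) and 0610040J01Rik (0.23). Each was at -1.76 or lower in Wnt3A 2 and between -0.16 and 0.25 on the other arrays. The closest member, Igfbp4, was at a distance of 0.65.

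Genes listed for IGF availability and processing were next considered, with 9 of 10 on the list measured. The list also holds Igf2bp1 and Igf2bp3, which encode Igf2 mRNA-binding proteins. They differed by -0.10 ± 0.11, separated lower, and 0.05 ± 0.13, with overlapping groups. Of the 9 measured, 3 were separated higher and 2 lower, 55.6% against 34.6% of all genes. By limma 0 passed the adjusted test and 1 had an unadjusted p under 0.05, against 7.37% of all genes. Stc2, which encodes stanniocalcin 2, an inhibitor of the IGFBP-cleaving protease PAPP-A, was at -0.27 and -0.66 with Wnt3A, against 0.51 and 0.36 in the controls. It differed by -0.90 ± 0.18 (limma adjusted p = 0.48), and all 3 of its probe sets were negative, between -1.41 and -0.45. Pappa, the protease gene, was at -0.18 and 0.51 against -1.19 and 0.25, with overlapping groups and a difference of 0.63 ± 0.54 that was -0.08 without control 1. Adam12, whose protein can cleave IGFBP3 and IGFBP5, was at 0.66 and 0.07 against -2.59 and -0.07, and its difference of 1.70 ± 0.87 was 0.44 without control 1. The list median was 0.15 log2 units, against 0.00 over all genes.

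A list of 11 genes that share the IGFBP domain with the family was measured in full, with a median of 0.19. Of these, 5 were separated higher and 1 lower, 54.5% against 34.6% of all genes. By limma 0 passed the adjusted test and 2 had an unadjusted p under 0.05, against 7.37% of all genes. Kazald1, a secreted protein with this domain, was at -1.29 and -1.0 with Wnt3A, against 1.61 and 1.0 in the controls. Its difference of -2.45 ± 0.25 was the largest on the list and lay between -2.75 and -2.14 with each array left out, with a limma adjusted p of 0.29. The matricellular genes Ccn2 and Ccn4 were higher by 1.78 ± 1.10 and 1.77 ± 0.51. Ccn2 was at 0.07 and 0.06 against -3.37 and -0.06, so the controls alone spread it, and it differed by 0.13 without control 1. Ccn4 was at 0.38 and 1.13 against -1.66 and -0.38, and differed by 1.13 without control 1.

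Of 28 insulin and IGF receptor signalling genes, 25 were measured, 2 separated higher and 3 lower, with a median of 0.02, 0 past the adjusted test and 1 with an unadjusted p under 0.05. Pik3r1, a regulatory subunit of the PI 3-kinase that IGF1R recruits, was at -0.59 and -0.28 with Wnt3A, against 0.25 and 0.55 in the controls. It differed by -0.83 ± 0.18 (limma adjusted p = 0.49), its 4 probe sets lay between -1.03 and -0.54, and the value stayed between -0.99 and -0.68 with each array left out. Pik3cb, a catalytic subunit, was higher by 0.43 ± 0.20, with 0.05 and 0.28 against -0.48 and -0.05, and differed by 0.22 without control 1. The receptor substrate gene Irs2 was spread by the Wnt3A arrays, at -0.76 and 1.32 against -0.43 and 0.43, and differed by 0.28 ± 0.76.

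Imprinted genes related to Igf2 had 8 of 9 measured, a median of -0.01 and 0 past either threshold. Among them 1 was separated higher and 2 lower, 37.5% against 34.6% of all genes. Mest differed by -1.25 ± 0.53, at -0.13 and -0.63 with Wnt3A against 1.62 and 0.13 in the controls, and by -0.51 without control 1. Plagl1, a zinc finger gene, differed by -0.30 ± 0.16 (-0.16 without Wnt3A 1, -0.19 without control 1) and Ndn by 0.47 ± 0.47, the 8 Ndn probe sets running between -0.17 and 1.07. Growth hormone drives Igf1 transcription in liver, and 6 of 7 genes of the growth hormone and prolactin arm were measured. All 6 differences were negative, with a median of -0.08. Of the 6, 2 were separated lower and 0 higher, 33.3% against 34.6% of all genes. By limma 0 passed the adjusted test and 1 had an unadjusted p under 0.05, against 7.37% of all genes. Ghr, the growth hormone receptor gene, was at -0.45 and -0.11 against 0.22 and 0.18, a difference of -0.48 ± 0.16 (limma adjusted p = 0.62) that was -0.31 without Wnt3A 1. Stat5a, a transcription factor of this pathway, differed by -0.31 ± 0.17, or -0.12 without control 1, and the kinase gene Jak2 by -0.08 ± 0.13.

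**Figure D4:**
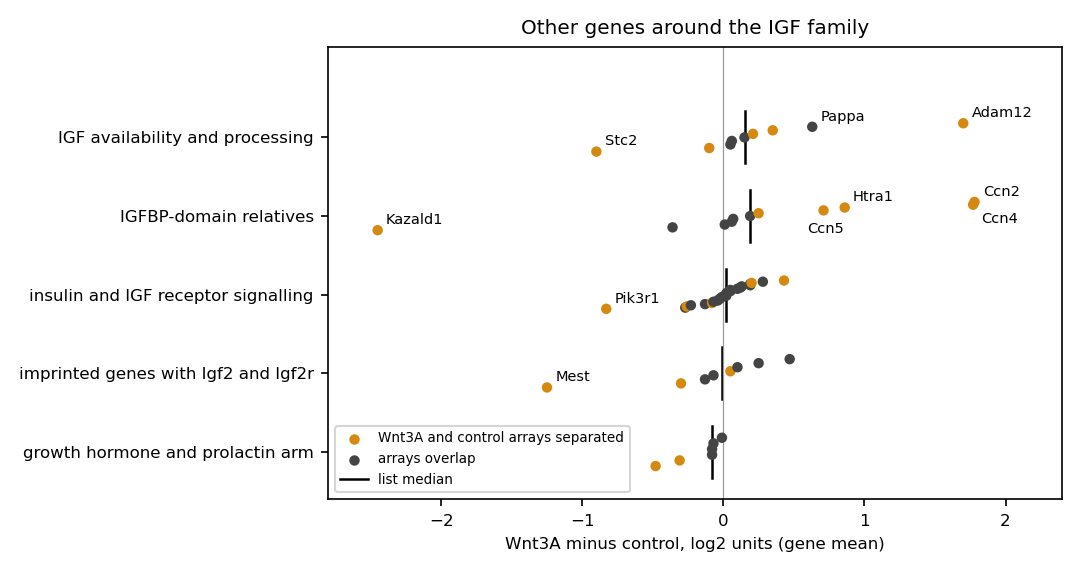
Wnt3A minus control difference in log2 units for each measured gene of 5 lists around the family; orange points are genes whose Wnt3A and control arrays do not overlap, grey points those that overlap, black bars list medians, and genes at least 0.6 log2 units from 0 are named. List medians lie between -0.08 and 0.19, with Kazald1 at -2.45 and Adam12, Ccn2 and Ccn4 between 1.70 and 1.78 as the points farthest out.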

How the data were processed

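RNA of 4 samples was measured on Affymetrix mouse expression arrays of 1 colour. Per the submitters' processing notes the authors used RMA, and the deposited values are on a log2 scale. Each of the 45101 rows of the table had a median of 0 (within 1e-06 log2 units), a centring that the sources do not describe. Differences between arrays are unaffected by it.

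After 64 array controls were left out, 34945 probe sets had a single gene symbol, in an annotation of the platform, and only these formed genes. Groups came from the sample titles. Wnt3A was compared with control in limma 3.58.1 (R 4.3.3; lmFit and eBayes, two-sided, no covariate, 2 residual degrees of freedom), once over 45037 probe sets and once over 18193 genes as means of their probe sets. The p-values were adjusted over all of them (Benjamini-Hochberg, threshold 0.05), and the fit was tested on simulated data. Level bands came from the binary precision of the stored values.

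The members, the 5 gene lists and the 6 marker lists were chosen with earlier results of these data known. Named were all members, the 3 genes per list with the largest absolute difference, and the 3 genes closest to the member with the largest difference; the single marker genes were chosen after their values were seen. Alternatives were other normalizations, centring, level filters, gene summaries, variance models, the number as a block, and each array left out. Promoter windows came from RefSeq and were searched with Python 3.11.15.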

Additional observations from a re-analysis of the deposited data

How the results depend on the processing

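In all alternatives limma, and the unmoderated fit of probe sets, called 0 probe sets and 0 genes, and the smallest adjusted p of any member was 0.29, for Igfbp5 without Wnt3A 1. Unadjusted p under 0.05 was counted for between 2184 and 4882 probe sets (1131 in the upper level band alone, with 15098 tested) and between 944 and 2275 genes, the most with the number as a block. The arrays share only a number, whose pairing is not established: the within-group deviations of same-numbered arrays correlated at 0.526 over probe sets. With this replicate block the differences were unchanged and 0 probe sets and genes were called, and the smallest member adjusted p was 0.35 (Igfbp4).

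Of 28 member probe sets, the 10 with separated groups became 6 in the upper level band alone, which holds 13 of them, and between 15 and 22 with an array left out, where a lone array separates more easily. Of 600 recomputed single values, 38 turned sign, 35 of them with an array left out. Many of the 600 could not turn. The number as a block, the variance models and the level filters of probe sets leave a difference as it was. Other gene summaries do the same for genes with a single probe set. The share of 38 in 600 is therefore no measure of stability, and the array omissions are the main check of sign. In 6 of 10 member genes, Igf1r, Igf2r, Igfbp2, Igfbp4, Igfbp5 and Igfbp7, no alternative turned the sign. These are the 6 member genes with separated groups, so for them the omissions only restate the separation. Igf2 differed by -0.16 in its highest level band and -0.01 after quantile normalization, and Igf1r 1452108_at by 0.00 there.

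With an array left out, genes that turned sign ranged over -0.43 to 1.15 (Igf1), -0.07 to 0.12 (Igf2), -0.67 to 0.41 (Igfbp3), -0.26 to 0.44 (Igfbp6, as its probe set), -0.08 to 1.35 (Pappa), -0.76 to 1.32 (Irs2), -0.12 to 1.05 (Ndn) and -0.17 to 0.01 (Jak2). Igf1 probe sets ranged over -0.84 to 1.06 (1437401_at), -0.38 to 0.79 (1419519_at) and -0.77 to 1.43 (1434413_at). The Igf2 probe set 1448152_at ranged over -0.46 to 0.14, Igf1r 1426565_at over -0.44 to 0.09 and 1452108_at over -0.09 to 0.10, and Igf2r 1424111_at over -0.41 to 0.05. Igfbp3 ranged over -0.76 to 0.29 (1423062_at) and -0.57 to 0.52 (1458268_s_at), Igfbp4 1421991_a_at over -0.47 to 0.09, Igfbp5 1422313_a_at over -0.69 to 0.16, and Igfbp7 over -0.16 to 0.05 (1437804_at) and -0.07 to 0.71 (1423585_at). Over the same omissions the list medians lay between 0.07 and 0.29 for IGF availability, 0.09 and 0.28 for IGFBP-domain relatives, -0.05 and 0.02 for receptor signalling, -0.14 and 0.05 for imprinted genes and -0.16 and -0.06 for the growth hormone arm. The cause of these turns and shifts was not tested.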
